A study of Mus musculus with 8 samples.

Results

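The genes examined here make prostaglandins or receive them: the cyclooxygenases Ptgs1 and Ptgs2, the terminal synthases Ptges, Ptgis and Ptgds, and the prostaglandin E2 receptors Ptger2 and Ptger4. They were chosen by symbol, 7 of the 32285 genes in the deposited count matrices, and all 7 were found. Counts of unique molecular identifiers (UMIs, one per captured transcript) were summed per animal over the cells of a deposited annotation. Levels are given as CPM, UMI counts scaled to sequencing depth in the usual way. For all fibroblasts of an animal, UMIs were divided by the TMM-scaled library size (a scaling factor set by the bulk of genes), from the fit of the unsorted animals. For FAP-sorted animals it came from their fit with the untreated arthritic animals, so their levels are on a slightly different scale. For single classes and other sets of cells, they were divided by the plain UMI total of those cells. Because the chemistry reads 3′ transcript ends, a level does not scale with transcript length.

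The study profiled synovial cells, the cells of the membrane lining the joint, from ankles and wrists of mice aged 8 to 10 weeks of the strain B6-Tg(TNF)197Gkl, which carries a human TNF transgene, and of wild types. Arthritic animals were hTNFtg197+ and had received Il23mc for 9 days. The arthritic groups were animals sorted for FAP+ Pdpn+ cells with no inhibitor (5 animals), animals given anti-hTNF (3 animals, TNF-inhibited) or anti-mIL-17a (3 animals, IL-17-inhibited), and animals given neither (3 animals, untreated). Healthy animals were untreated wild types without transgene or Il23mc (3 animals, 1 in each of the 3 unsorted libraries). Each treatment filled 1 droplet library, so treatment and library cannot be told apart. All cells were sorted as viable and CD45-negative. Each animal was told apart by a hashtag antibody, and the cells that express the transgene are not given in the sources used here.

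Of 24227 annotated cells, 21731 belonged to 5 fibroblast classes (Il6+, Mmp3+, Pi16+, Lining and Cd200+) and the rest were chondrocytes and osteoblasts. The 5 fibroblast markers checked summed to 17439 to 30151 CPM in every animal. Ptprc, which encodes CD45, had no UMI in healthy fibroblasts but was counted in every arthritic group. Fibroblast depth was 13695149 to 28874555 UMIs in FAP-sorted animals, 12372684 to 36786390 in the unsorted arthritic animals and 4508588 to 7307067 in healthy ones. The healthy animals were the shallowest, and their hashtag labels were the least clear in raw counts. Their assigned hashtag led the raw hashtag counts in 9.93% to 34.8% of their cells, against at least 96.2% in every other animal. Raw counts of different hashtags need not share 1 scale. With each hashtag's log counts centred on their mean in the library, the assigned one led in 100% of healthy cells. It then led in at least 99.0% of cells in every other animal. A UMI of a Y-linked gene was found in 23.1% of healthy cells in the TNF-inhibited library and 17.7% in the IL-17-inhibited one, while 65.4% and 67.3% of these cells held Xist and no Y-linked UMI, so each set mixed cells of both sexes and need not be 1 animal. A healthy animal here means the cells carrying 1 library's healthy hashtag, and n = 3 counts these sets, so the replicate identity behind every comparison with health is in doubt for 2 of the 3. The healthy set of the untreated library held Y-linked UMIs in 2.94% of its cells. Untreated animals 1 and 3 of that library held them in 4.09% and 3.48%, so a mixture with their cells would not show by sex. A total of 60 annotated barcodes were shared by 2 or more libraries.

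Prostaglandins are short-lived lipids made from arachidonic acid, which phospholipases release from membranes. Cyclooxygenases turn it into prostaglandin H2, and terminal synthases then make prostaglandin E2 (Ptges, microsomal prostaglandin E synthase), prostacyclin (Ptgis) or prostaglandin D2 (Ptgds). Ptgs1 is the constitutive cyclooxygenase, while Ptgs2 (COX-2) is induced by inflammatory cytokines and is a target of anti-inflammatory drugs used in arthritis. EP2 and EP4, encoded by Ptger2 and Ptger4, raise cyclic AMP in the cells that bear them.

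The promoters of both cyclooxygenases are shown because Ptgs2 and Ptgs1 differed from healthy animals in opposite directions. They are RefSeq sequences of GRCm38.p6, 250 bases before to 50 bases after the annotated start, read along the gene's strand. Ptgs2 lies on chromosome 1 (chr1:150100031-150108227, plus strand, GENCODE annotation of the same genome) and its promoter window is chr1:150099781-150100080. Ptgs1 lies on chromosome 2 (chr2:36230426-36252272, plus strand) with the window chr2:36230176-36230475. Capitals mark matches, on either strand, to the cyclic AMP response element core TGACGT, the C/EBP motif TTGCGCAA and the E-box CACGTG.
Ptgs2: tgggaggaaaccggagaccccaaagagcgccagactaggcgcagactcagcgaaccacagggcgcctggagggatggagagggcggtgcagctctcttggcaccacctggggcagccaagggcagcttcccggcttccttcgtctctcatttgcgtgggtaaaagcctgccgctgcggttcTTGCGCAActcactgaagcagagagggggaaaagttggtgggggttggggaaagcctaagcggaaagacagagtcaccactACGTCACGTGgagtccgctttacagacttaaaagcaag
Ptgs1: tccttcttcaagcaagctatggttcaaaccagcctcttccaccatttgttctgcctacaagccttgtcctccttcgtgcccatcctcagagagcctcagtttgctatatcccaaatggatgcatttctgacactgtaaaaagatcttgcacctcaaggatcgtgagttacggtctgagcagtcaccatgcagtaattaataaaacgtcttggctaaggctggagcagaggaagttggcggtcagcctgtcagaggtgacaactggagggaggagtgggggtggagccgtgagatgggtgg
The Ptgs2 window held 1 match of each motif, and its cyclic AMP core and E-box overlap. The Ptgs1 window held none, nor did those of Ptges, Ptgds, Ptger2 and Ptger4, and Ptgis was not among the 6 promoters matched. Of 32851 promoter windows of this length, 7.51% held the cyclic AMP core, 7.15% the E-box and 0.183% the C/EBP motif. A match is a run of letters and not a bound site.

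Ptgs2 was the most abundant of the 7 genes in fibroblasts and was higher in untreated arthritis than in health. It stood at 1191, 656 and 1001 CPM in the 3 untreated arthritic animals, against 524, 260 and 282 CPM in healthy animals, whose values follow the order of their libraries (untreated, TNF-inhibited, then IL-17-inhibited) here and in what follows. The groups did not overlap. The log2 fold change was 1.42 ± 0.30 (SE, adjusted p = 0.00355, edgeR quasi-likelihood test with Benjamini-Hochberg adjustment over all 14348 genes tested, n = 3 each). Ptgs1 differed in the other direction and was low in both groups. It stood at 2.35, 2.72 and 2.41 CPM in untreated arthritic animals, against 9.32, 14.04 and 15.3 CPM in healthy ones, a log2 fold change of -2.34 ± 0.34 (edgeR adjusted p = 0.000216).

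Of the terminal synthases, Ptgis was lower in untreated arthritis and Ptges did not pass the test. Ptgis, which makes prostacyclin, stood at 33.9, 28.5 and 40.2 CPM in untreated arthritic animals, against 86.0, 84.2 and 99.7 CPM in healthy ones, and its log2 fold change was -1.39 ± 0.32 (edgeR adjusted p = 0.00517). Ptges stood at 138, 110 and 132 CPM in untreated arthritic animals, against 72.9, 99.8 and 103 CPM in healthy ones. These did not overlap either, but the log2 fold change of 0.46 ± 0.19 missed the threshold (edgeR adjusted p = 0.0847). It passed when the healthy cells with a Y-linked UMI were left out (edgeR adjusted p = 0.0285, an alternative added after the data were seen) and with 3 other settings (cells below the median stress score, no filter on low counts, and a fit of these groups alone). Ptgds had 11 UMIs in all fibroblasts of the 17 animals, 2 of them in FAP-sorted, 2 in TNF-inhibited, 5 in IL-17-inhibited, 1 in untreated arthritic and 1 in healthy animals, and failed the filter on low counts.

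Both E2 receptors were higher in untreated arthritis. Ptger4 stood at 37.5, 41.2 and 46.7 CPM in untreated arthritic animals, against 25.8, 16.2 and 25.5 CPM in healthy ones, a log2 fold change of 0.89 ± 0.20 (edgeR adjusted p = 0.00461). Ptger2 stood at 2.59, 1.82 and 3.19 CPM in untreated arthritic animals, against 0.478, 0.330 and 0.804 CPM in healthy ones. The healthy values rest on 10 UMIs in all, 4, 2 and 4 per animal, and the gene passed the filter on low counts through the arthritic groups, where it is high, so its call is not read as support for the others. Its fitted log2 fold change was 2.28 ± 0.52 (edgeR adjusted p = 0.00491). Leaving Ptger2 aside, 4 of the 5 other members tested were called, where 28.7% of all tested genes were called. These 4 calls held when the healthy cells with a Y-linked UMI were left out (edgeR adjusted p from 0.000294 to 0.00884).

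Other cells moved with the same contrast. Macrophage markers summed to 16.4 to 25.9 CPM in untreated arthritic fibroblasts and 3.799 to 5.83 CPM in healthy ones, with Adgre1 at 0 in healthy fibroblasts. Keratinocyte markers summed to 24.8 to 31.7 CPM in untreated arthritic and 121 to 328 CPM in healthy fibroblasts. Endothelial markers summed to 5.54 to 7.17 CPM in untreated arthritic and 7.27 to 8.01 CPM in healthy fibroblasts. Leukocyte markers summed to 2.35 to 2.94 CPM in untreated arthritic and 0.201 to 0.956 CPM in healthy fibroblasts. The sums were 45.2 to 56.7 and 16.1 to 17.3 CPM for neutrophil markers, in the same order. They were 74.1 to 76.3 and 30.1 to 36.5 CPM for perineurial markers, and 7.20 to 9.39 and 10.4 to 12.1 CPM for platelet markers. The part of these other cells in the differences was not tested. In the sums, fewer cells of a class and less RNA per cell cannot be told apart.

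**Figure D1:**
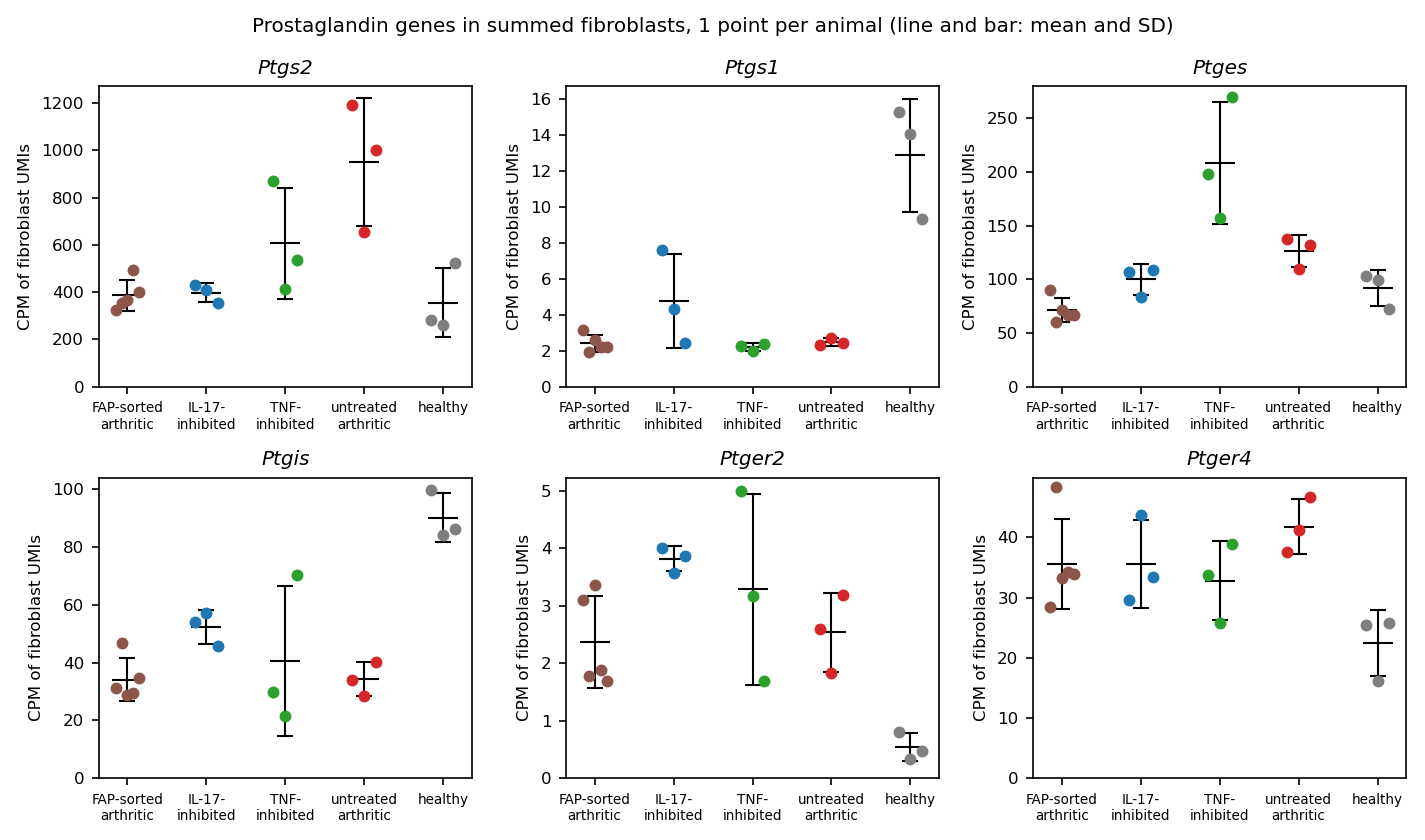
CPM of 6 genes in summed fibroblasts (vertical axes) by group, 1 point per animal, with the mean (horizontal line) and SD (bar). FAP-sorted points are scaled from a different fit than the others. Ptgs2 and Ptger4 of untreated arthritic animals lie above all healthy values, while Ptgs1 and Ptgis lie below them.

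Setting each arthritic animal against the healthy animal of its own library gave the same directions for 5 genes. Ptgs2 was above the library's healthy animal in 9 of 9 arthritic animals, with log2 ratios of the means of 0.86 in the untreated, 1.22 in the TNF-inhibited and 0.50 in the IL-17-inhibited library. Ptgis and Ptgs1 were below it in 9 of 9. Ptger4 and Ptger2 were above it in 9 of 9. Ptges was above it in 8 of 9, with log2 ratios of 0.80 (untreated), 1.06 (TNF-inhibited) and -0.04 (IL-17-inhibited). In the edgeR fit with library as a term the 5 members tested other than Ptger2 were called, where 40.2% of all tested genes were. Ptger2 was called too, on the same 10 healthy UMIs. The largest adjusted p was that of Ptges, 0.0364, at a log2 fold change of 0.58 ± 0.20. Ptgs2 was no longer called without the healthy animal of the TNF-inhibited library (log2 fold change 0.68, edgeR adjusted p = 0.0815). Ptges was no longer called without that animal (0.36, edgeR adjusted p = 0.254), without the healthy animal of the untreated library (0.48, edgeR adjusted p = 0.177), or without untreated animal 1 or 3 or IL-17-inhibited animal 3 (edgeR adjusted p from 0.0503 to 0.0554). When the untreated animals alone were set against health with library as a term, 1 member, Ptgs1, was called (-1.89, edgeR adjusted p = 0.0223). Ptgs2 then had a log2 fold change of 0.86 (edgeR adjusted p = 0.173), and these values rest on the cells of 1 healthy hashtag per library.

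The fibroblasts of the groups were not the same mixture. Pi16+ cells were 1.20% of fibroblasts in untreated arthritic animals and 43.0% in healthy ones, while Mmp3+ cells were 38.8% in untreated arthritic and 3.70% in healthy animals (means over animals). Each gene's UMIs were spread over the classes in its own way. In untreated arthritis Il6+ cells held 56.3% and Mmp3+ cells 37.6% of the Ptgs2 UMIs. In health Il6+ cells held 49.2%, Pi16+ cells 32.0% and Mmp3+ cells 0.728%. Ptges UMIs lay mainly in Mmp3+ (57.1%) and Il6+ (36.0%) cells in untreated arthritis, and in Pi16+ (49.3%) and Il6+ (42.8%) cells in health. Ptger2 was concentrated in Mmp3+ cells, which held 86.2% of its UMIs in untreated arthritis and 25.0% of its 10 UMIs in health. Ptgs1 was carried by Mmp3+ (39.4%) and Lining (29.2%) cells in untreated arthritis and by Pi16+ cells (56.8%) in health.

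**Figure D2:**
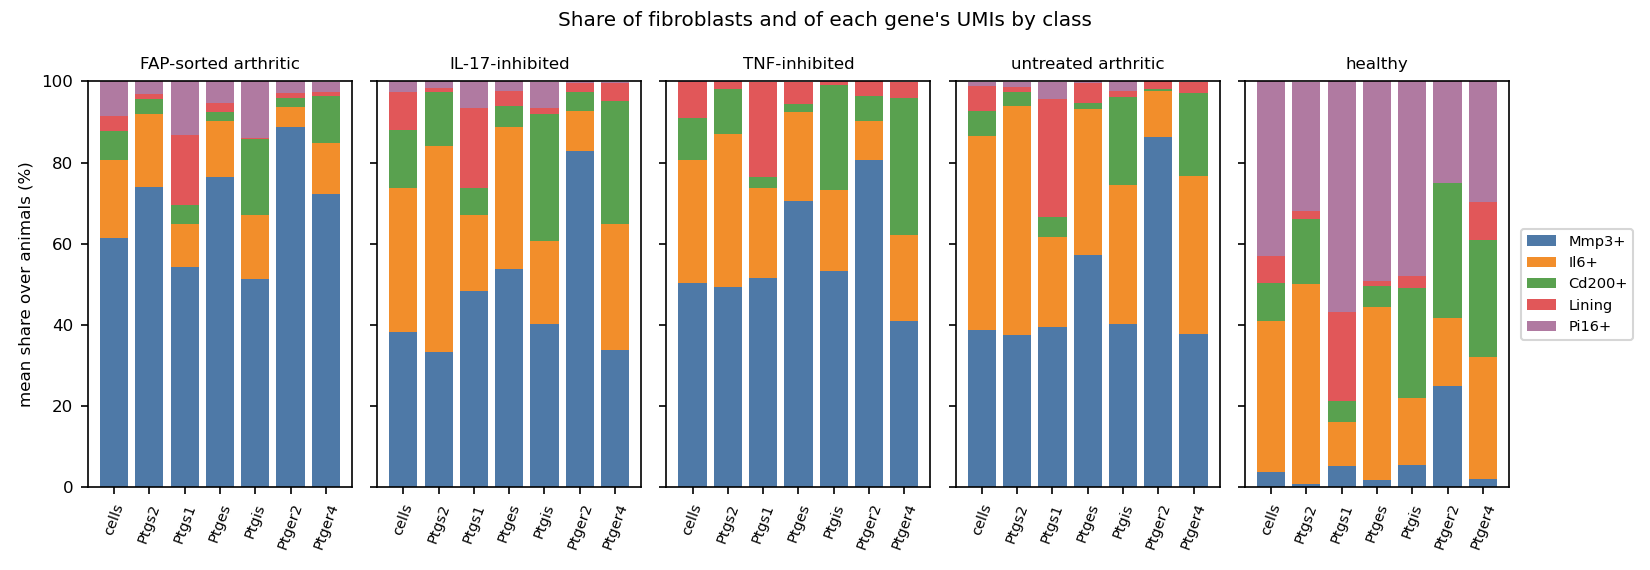
Mean share over animals (vertical axes, in percent) of fibroblasts and of each gene's fibroblast UMIs by class, 1 panel per group. Pi16+ cells hold 43.0% of healthy fibroblasts and 1.20% of untreated arthritic ones, and the healthy Ptger2 bar rests on 10 UMIs.

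To compare animals at one mixture, each gene's class levels were averaged with the same weights in every animal, over Lining, Il6+, Cd200+ and Mmp3+. The weights were the mean class shares over the 12 unsorted animals. At these fixed shares Ptgs2 averaged 713 ± 291 CPM in the 9 arthritic animals of the unsorted libraries and 388 ± 173 CPM in the 3 healthy ones (SD). The within-library difference was 0.86 on the log2 scale (two-sided exact permutation p = 0.0156, the smallest that 64 arrangements allow), and every arthritic animal lay above the healthy one of its library, while the ranges over all libraries overlapped (407 to 1180 CPM arthritic, 284 to 588 CPM healthy). Ptgis averaged 45.5 ± 9.9 CPM in arthritic and 116 ± 21 CPM in healthy animals, a difference of -1.35 (exact permutation p = 0.0156). Ptger4 averaged 43.5 ± 8.6 CPM in arthritic and 26.3 ± 4.5 CPM in healthy animals, a difference of 0.70 (exact permutation p = 0.0156). Ptges averaged 134 ± 42 CPM in arthritic and 87.9 ± 19.9 CPM in healthy animals, a difference of 0.57, and Ptgs1 averaged 2.81 ± 1.23 and 12.8 ± 12.2 CPM in those groups, a difference of -1.53 (exact permutation p = 0.0156 for each). The healthy Ptgs1 level at fixed shares was 26.7 CPM in the IL-17-inhibited library and at most 7.88 CPM in the others. Without that library's healthy animal the Ptgs1 difference was -1.03. In healthy Mmp3+ cells Ptgs1 ranged from 0 to 53.9 CPM, on 12 UMIs in 57 cells. These cells were 3.70% of healthy fibroblasts, so the size of the Ptgs1 difference is uncertain. Without any 1 healthy animal 16 arrangements remain, whose smallest p is 0.0625.

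Ptger2 did not separate at fixed shares. It averaged 2.51 ± 0.82 CPM in arthritic and 2.08 ± 1.20 CPM in healthy animals, a difference of 0.23 (exact permutation p = 0.469), where the fitted log2 fold change over the unweighted sums was 2.59 ± 0.46. The groups overlapped. These were 6 such comparisons, each at an unadjusted p. For every gene the healthy Mmp3+ level enters with 16 to 24 cells per animal. These cells held 2 UMIs of Ptger2, 7 of Ptger4 and 12 of Ptgs1 in all.

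**Figure D3:**
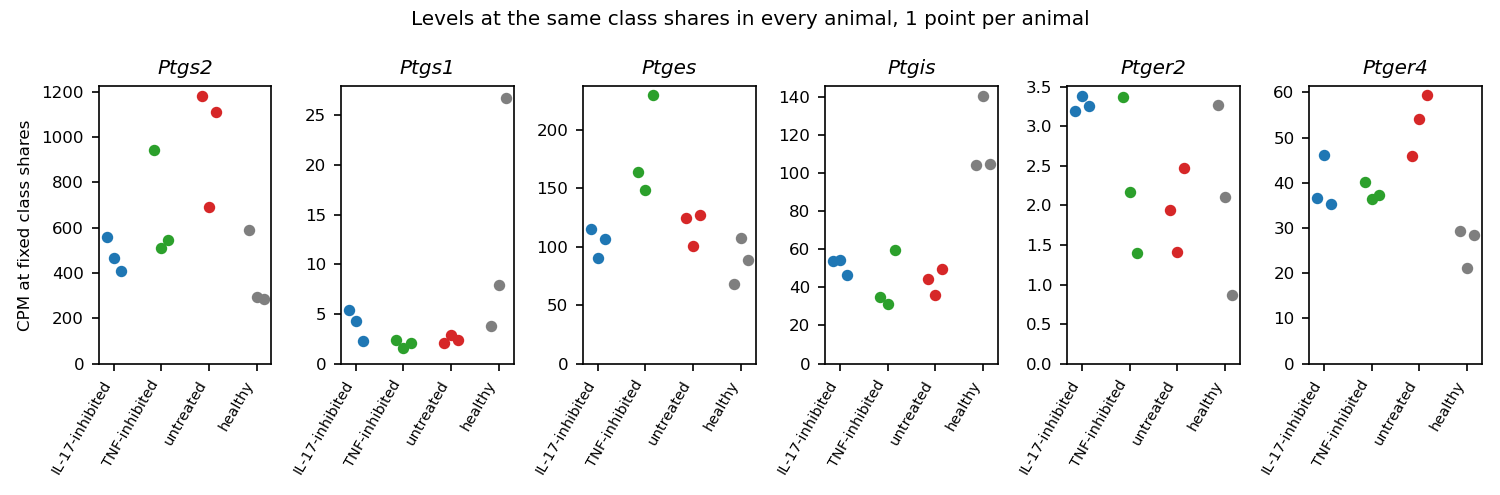
CPM at the same class shares in every animal (vertical axes) by group, 1 point per animal. Ptger2 overlaps between arthritic and healthy animals, while Ptgis is at most 59.8 CPM in arthritic animals and at least 104 CPM in healthy ones.

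In untreated arthritis the order of the classes by level differed between the genes but was partly shared. Ptgs2 and Ptges both had their highest mean in Il6+ cells, and Ptgs2 and Ptgis both had their lowest in Lining cells. The classes come from clustering these cells, so levels between classes are a description with no test. In untreated arthritis Ptgs2 was highest in Il6+ cells at 1555 ± 490 CPM (SD, n = 3), followed by 1387 ± 577 in osteoblasts, 1206 ± 310 in Pi16+, 874 ± 370 in chondrocytes, 703 ± 82 in Cd200+ and 637 ± 106 in Mmp3+ cells. Neighbours in that order differed by less than the larger of their SDs. Lining cells, which face the joint space, were lowest at 158 ± 70 CPM and did not overlap the others. Ptges was highest in Il6+ (133 ± 26) and Mmp3+ (132 ± 9) cells, with Lining at 71.8 ± 21.4 CPM and Cd200+ at 43.1 ± 5.9 CPM. Ptgis had another order, with osteoblasts at 171 ± 56, Cd200+ at 170 ± 28 and chondrocytes at 144 ± 40 CPM against 5.17 ± 1.51 CPM in Lining cells. Ptger4 was highest in Cd200+ cells at 190 ± 49 CPM, and 13.2 ± 4.3 CPM in Lining cells. Ptgs1 was highest in Lining (8.15 ± 2.98) and Pi16+ (7.97 ± 8.46) cells and averaged 2.77 CPM or less in each other class.

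Within classes, untreated arthritis differed from health most often for Ptgs2. It rose in 5 of 7 classes. In Mmp3+ cells it stood at 702, 514 and 696 CPM in untreated arthritic animals, against 134, 113 and 24.5 CPM in healthy ones, a log2 fold change of 3.36 ± 0.45 (edgeR adjusted p = 0.000532). The healthy Mmp3+ values rest on 16, 17 and 24 cells and 44 UMIs. In Il6+ cells it stood at 1916, 997 and 1753 CPM in untreated arthritic animals, against 1028, 491 and 411 CPM in healthy ones, where the lowest untreated animal lay below the highest healthy one (log2 fold change 1.37 ± 0.31, edgeR adjusted p = 0.0162). The rise was 2.86 ± 0.55 in chondrocytes, 2.15 ± 0.39 in Pi16+ cells and 1.30 ± 0.29 in osteoblasts (edgeR adjusted p = 0.00311, 0.00662 and 0.00947). The Pi16+ value rests on 11, 19 and 24 cells of untreated arthritic animals. In Lining cells (1.41 ± 0.57) and Cd200+ cells (0.19 ± 0.31) it was not called (edgeR adjusted p = 0.121 and 0.826).

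Ptges rose in Lining and Mmp3+ cells, and the other classes were not called. Lining cells held 96.5, 58.9 and 60.01 CPM in untreated arthritic animals, against 8.08, 13.8 and 7.99 CPM in healthy ones, whose values rest on 21 UMIs. The log2 fold change was 3.01 ± 0.37 (edgeR adjusted p = 3.8e-05). In Mmp3+ cells it was 1.77 ± 0.40 (edgeR adjusted p = 0.0145). In Il6+ cells, at 133 ± 26 CPM in untreated arthritis and 143 ± 39 CPM in health (SD, n = 3 each), it was -0.02 ± 0.20 (edgeR adjusted p = 0.978).

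Ptgis fell in 4 classes. The log2 fold change was -1.91 ± 0.53 in Lining cells, -0.74 ± 0.16 in Cd200+ cells, -1.42 ± 0.24 in chondrocytes and -1.84 ± 0.28 in osteoblasts (edgeR adjusted p = 0.0245, 0.0145, 0.0012 and 0.000456). Cd200+ cells held 167, 143 and 200 CPM in untreated arthritic animals, against 355, 258 and 286 CPM in healthy ones. Osteoblasts averaged 171 ± 56 CPM in untreated arthritis and 666 ± 65 CPM in health (SD, n = 3 each). Ptgs1 fell in Lining cells, with 10.5, 9.15 and 4.80 CPM in untreated arthritic animals against 18.2, 30.4 and 34.6 CPM in healthy ones (log2 fold change -1.50 ± 0.36, edgeR adjusted p = 0.00998).

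Ptger4 rose in Cd200+ cells by 1.35 ± 0.22, in Il6+ cells by 0.96 ± 0.19 and in chondrocytes by 2.00 ± 0.32 on the log2 scale (edgeR adjusted p = 0.00181, 0.00632 and 0.000852). Cd200+ cells held 135, 205 and 230 CPM in untreated arthritic animals, against 90.5, 54.5 and 94.6 CPM in healthy ones. In Lining cells Ptger4 was not called, at 13.2 ± 4.3 CPM in untreated arthritis and 21.3 ± 8.5 CPM in health (log2 fold change -0.36 ± 0.36, edgeR adjusted p = 0.601). Ptger2 could be tested in Mmp3+ cells alone, at 4.00 ± 0.94 CPM in untreated arthritis and 4.43 ± 4.20 CPM in health, and was not called (0.50 ± 1.09, edgeR adjusted p = 0.850).

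Over the 7 classes, 15 of 32 member-by-class tests were called. The share of all tested genes called was 13.2% in Lining, 6.84% in Mmp3+, 6.91% in Il6+, 4.27% in Cd200+ and 3.43% in Pi16+ cells, 12.9% in chondrocytes and 8.93% in osteoblasts. Several calls rest on single animals. Leaving out 1 animal at a time, with the lone sample or pair assumed to vary like the other groups, ended the Mmp3+ call of Ptges without any 1 healthy animal (edgeR adjusted p from 0.0507 to 0.109), the Il6+ call of Ptgs2 in 4 of 6 cases (0.0576 to 0.0873) and the Lining call of Ptgis in 5 of 6 cases (0.0578 to 0.0915). The Lining call of Ptgs1 ended without untreated animal 3 or the healthy animal of the TNF-inhibited library (edgeR adjusted p = 0.0503 and 0.0655). The Cd200+ call of Ptgis ended without untreated animal 2 or the healthy animal of the untreated library (edgeR adjusted p = 0.112 and 0.0784), and the osteoblast call of Ptgs2 without the healthy animal of the IL-17-inhibited library (0.0619). The calls of Ptges in Lining cells, of Ptgs2 in Mmp3+ cells, Pi16+ cells and chondrocytes, of Ptgis in chondrocytes and osteoblasts, and of Ptger4 in Il6+ cells, Cd200+ cells and chondrocytes held in all 6 cases.

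**Figure D4:**
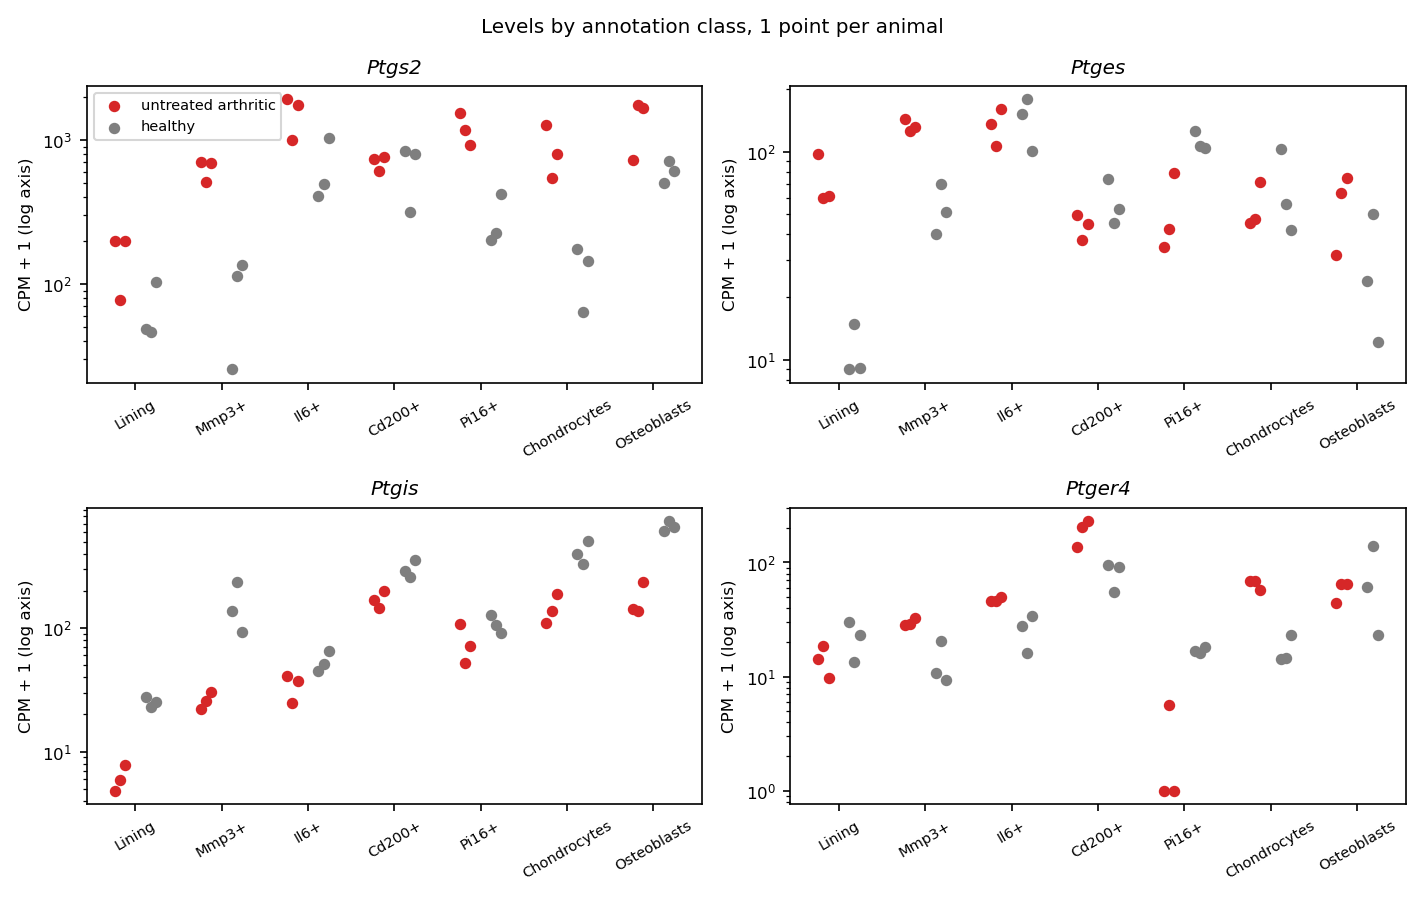
CPM + 1 on a log axis (vertical) by annotation class for Ptgs2, Ptges, Ptgis and Ptger4, 1 point per animal with at least 10 cells of the class, untreated arthritic left of healthy. Ptges of Lining cells lies between 58.9 and 96.5 CPM in untreated arthritic animals and at or below 13.8 CPM in healthy ones.

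A fit chosen after these values were seen tested whether the difference between untreated arthritis and health varied between classes, with Il6+ as the base and animal as a block. The Ptges difference was larger by 2.99 ± 0.35 in Lining and by 1.80 ± 0.33 in Mmp3+ cells than in Il6+ cells (edgeR adjusted p = 1.21e-06 and 0.00165). The Ptgs2 difference was larger by 1.89 ± 0.45 in Mmp3+ cells, where that of Ptgis was set off by -1.61 ± 0.31 (edgeR adjusted p = 0.0132 and 0.00245). The Ptger4 difference was set off by -1.30 ± 0.37 in Lining cells (edgeR adjusted p = 0.0359) and was also called in Pi16+ cells, where untreated arthritic animals had 1 UMI and healthy ones 125. That offset of -4.39 was -9.18 without untreated animal 2, which held the UMI. Members called were 2 of 5 in Lining cells, where 5.07% of all tested genes were called, and 3 of 5 in Mmp3+ cells, where 3.49% were. They were 1 of 5 in Pi16+ cells, where 0.113% were called, and 0 of 5 in Cd200+ cells, where 0.245% were. In Cd200+ cells 1 of the 5, Ptgs2, passed 0.05 before adjustment (-1.14 ± 0.35, unadjusted p = 0.00302 from edgeR, over all genes tested), and no other tool was run on this fit. The Ptgis call ended without the healthy animal of the TNF-inhibited library (-1.12, edgeR adjusted p = 0.158), and the Ptgs2 call without that of the untreated library (1.84, edgeR adjusted p = 0.0797). Leaving out 1 animal ended the Lining call of Ptger4 in 5 of 6 cases, its Pi16+ call in 4 of 6 and both calls of Ptges in none.

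IL-17 inhibition was set against untreated arthritis to see which members changed with the antibody. Ptgs2 was lower. It stood at 430, 411 and 353 CPM in IL-17-inhibited animals, against 1191, 656 and 1001 CPM in untreated arthritic ones, with no overlap (log2 fold change -1.25 ± 0.30, edgeR adjusted p = 0.0248). It was the 1 of 6 tested members called, where 8.45% of all tested genes were. The call ended without IL-17-inhibited animal 2 or 3 or untreated animal 1 or 3 (edgeR adjusted p from 0.0723 to 0.0960). With each group taken relative to the healthy animal of its own library, the difference was -0.36 and was not called (edgeR adjusted p = 0.916). That edgeR fit called 0 of all tested genes, with 1107 at an unadjusted p under 0.05, and its treatment effects rest on 1 healthy animal per library. DESeq2 was not run with that term for this comparison.

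Within classes under IL-17 inhibition, Ptgs2 fell by 1.29 ± 0.32 in Mmp3+ and by 2.17 ± 0.40 in Pi16+ cells on the log2 scale (edgeR adjusted p = 0.0298 and 0.0399). Mmp3+ cells held 378, 257 and 209 CPM in IL-17-inhibited animals, against 702, 514 and 696 CPM in untreated arthritic ones. Ptger4 fell in Cd200+ cells by 0.86 ± 0.19 (edgeR adjusted p = 0.0350), at 108, 121 and 82.7 CPM in IL-17-inhibited animals against 135, 205 and 230 CPM in untreated arthritic ones. In Il6+ cells Ptgs2 averaged 729 ± 66 CPM in IL-17-inhibited and 1555 ± 490 CPM in untreated arthritic animals and was not called (-1.08 ± 0.31, edgeR adjusted p = 0.0931). Ptges in Lining cells averaged 34.3 ± 8.7 CPM in IL-17-inhibited and 71.8 ± 21.4 CPM in untreated arthritic animals (-1.06 ± 0.24, edgeR adjusted p = 0.0595). Calls were 3 of 32 tests, where 0.495% of all tested genes were called in Lining, 6.41% in Mmp3+, 2.24% in Il6+, 1.48% in Cd200+ and 0.307% in Pi16+ cells, 0.234% in chondrocytes and 0.594% in osteoblasts. Each of the 3 ended in 5 of 6 cases when 1 animal was left out.

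TNF inhibition gave another pattern, in which Ptges was higher. It stood at 198, 157 and 270 CPM in TNF-inhibited animals, against 138, 110 and 132 CPM in untreated arthritic ones, with no overlap (log2 fold change 0.72 ± 0.19, edgeR adjusted p = 0.0421). It was the 1 of 6 tested members called, where 5.55% of all tested genes were. The call ended without TNF-inhibited animal 1 or 3 or any 1 untreated animal (edgeR adjusted p from 0.0589 to 0.146), and relative to the libraries' healthy animals the difference was 0.26 (edgeR adjusted p = 0.976), in a fit that called 0 of all tested genes, with 799 at an unadjusted p under 0.05. Ptgs2 stood at 868, 413 and 538 CPM in TNF-inhibited animals and overlapped the untreated arthritic ones (-0.65 ± 0.30, edgeR adjusted p = 0.210). Relative to the libraries' healthy animals its difference had the other sign, 0.37 (edgeR adjusted p = 0.979).

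TNF-inhibited animal 3 stood apart from the other animals of its group. Its Ptgis was 70.2 CPM beside 29.9 and 21.5 CPM in the others, and its Ptges was the highest. Y-linked UMIs were found in 4.87% of its cells, against 81.3% and 86.5% in TNF-inhibited animals 1 and 2. The other unsorted arthritic groups also held animals that differed in this. The share was 57.8% in untreated animal 2, against 4.09% and 3.48% in untreated animals 1 and 3. It was 75.5% in IL-17-inhibited animal 1, against 2.97% and 2.34% in IL-17-inhibited animals 2 and 3. The part of sex in the comparisons was not tested. Within classes 0 of 29 tests were called by edgeR under TNF inhibition, with 9 at an unadjusted p under 0.05. Without the filter on low counts 9 of 41 were called. The share of all genes called without the filter is not given here, so that count is not read as a result. With the filter, the background was that 1.33% of all tested genes were called in Lining, 2.33% in Mmp3+, 0.254% in Il6+ and 1.07% in Cd200+ cells, 0% in chondrocytes and 1.26% in osteoblasts. The nearest were Ptges in Mmp3+ cells (0.86 ± 0.23, edgeR adjusted p = 0.0619) and Ptger4 there (-0.49 ± 0.16, edgeR adjusted p = 0.111). Pi16+ cells were too few to test, at 6, 1 and 2 cells.

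The inhibitors were then set against each other. Ptges was lower under IL-17 than under TNF inhibition, at 107, 83.7 and 109 CPM in IL-17-inhibited animals against 198, 157 and 270 CPM in TNF-inhibited ones (log2 fold change -1.05 ± 0.19, edgeR adjusted p = 0.00535). It was the 1 of 6 tested members called, where 7.6% of all tested genes were, and it stayed called without any 1 animal. Ptgs1 stood at 7.60, 4.34 and 2.42 CPM in IL-17-inhibited and 2.25, 2.00 and 2.40 CPM in TNF-inhibited animals (1.10 ± 0.33, edgeR adjusted p = 0.0645). It passed without IL-17-inhibited animal 3 (1.43, edgeR adjusted p = 0.00717). Relative to the libraries' healthy animals the Ptges difference was -1.10 and was not called (edgeR adjusted p = 0.617), in a fit that called 0 of all tested genes, with 1028 at an unadjusted p under 0.05.

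Both treated groups were also compared with health, sharing the same healthy animals. Under TNF inhibition 3 of the 5 tested members other than Ptger2 were called, where 38.9% of all tested genes were. Ptges (1.18 ± 0.19) was higher than in health, and Ptgs1 (-2.53 ± 0.35) and Ptgis (-1.18 ± 0.32) lower, while Ptgs2 (0.77 ± 0.30, edgeR adjusted p = 0.0584) was not called. Under IL-17 inhibition 2 of those 5 were called, where 35.6% of all tested genes were, a share near the background. Ptger4 (0.66 ± 0.20) was higher and Ptgs1 (-1.44 ± 0.32) was lower than in health. Ptgs2 (0.16 ± 0.30, edgeR adjusted p = 0.710) was not called, at 430, 411 and 353 CPM in IL-17-inhibited animals against 524, 260 and 282 CPM in healthy ones, which overlap. The call of Ptger4 ended without IL-17-inhibited animal 2 or the healthy animal of the TNF-inhibited library (edgeR adjusted p = 0.0827 and 0.0899).

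FAP-sorted fibroblasts held less Ptgs2 and Ptges than unsorted untreated arthritic ones. Ptgs2 stood at 323, 356, 367, 494 and 400 CPM in FAP-sorted animals (lowest 323, median 367, highest 494), against 1191, 656 and 1001 CPM in untreated arthritic ones, a log2 fold change of -1.19 ± 0.18 (edgeR adjusted p = 0.000731 over 13418 genes). Ptges lay between 60.5 and 89.9 CPM in FAP-sorted animals, against 110 to 138 CPM in untreated arthritic ones (-0.73 ± 0.12, edgeR adjusted p = 0.00122). Neither overlapped. These were 2 of 6 tested members, where 42.9% of all tested genes were called, so the share was no higher than the background. The other 4 tested members were not called, at differences between -0.14 and 0.09. The deposited stress score of the cells had a median of 0.112 to 0.366 in FAP-sorted animals and 0.639 to 0.802 in untreated arthritic ones, and its part in the result was not tested. Sort, library and processing version differed together and cannot be told apart. The class mixture differed too, and its part was not tested. FAP-sorted fibroblasts were 61.5% Mmp3+ and 19.2% Il6+ cells, against 38.8% and 47.8% in untreated arthritic animals. Ptgs2 averaged 551 CPM in Il6+ and 376 CPM in Mmp3+ cells of FAP-sorted animals, against 1555 and 637 CPM in untreated ones. Ptges averaged 72.9 and 71.7 CPM in those FAP-sorted classes, against 133 and 132 CPM. In Pi16+ cells Ptges averaged 70.7 CPM in FAP-sorted and 50.9 CPM in untreated animals.

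Within each animal, cells in the upper tertile of the stress score were set beside those in the lower tertile, as a description. Ptgs2 was lower in the upper tertile in all 9 arthritic animals of the unsorted libraries and in all 5 FAP-sorted animals. It averaged 633 CPM in the upper and 1004 CPM in the lower tertile of untreated arthritic animals, and 262 and 492 CPM in FAP-sorted ones. In healthy animals it averaged 317 CPM in the upper and 346 CPM in the lower tertile and was higher in the upper one in 1 of 3. Ptges averaged 82.3 CPM in the upper and 146 CPM in the lower tertile of untreated arthritic animals. Ptger4 went the other way, at 52.2 CPM in the upper and 30.0 CPM in the lower tertile.

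Cells with a Ptgs2 UMI were then compared with the other cells of the same class and animal, as a description. In Il6+ cells Ptges averaged 142 CPM in cells with Ptgs2 and 87.4 CPM in cells without it, and was higher with it in 15 of 17 animals. In Mmp3+ cells the values were 144 and 106 CPM, higher in 13 of 14 animals with at least 20 cells of each kind. Ptger4 of Mmp3+ cells averaged 29.9 CPM with and 25.3 CPM without Ptgs2, higher in 12 of 14 animals, while in Il6+ cells it averaged 35.5 and 35.1 CPM. Ptgis of Mmp3+ cells averaged 29.7 CPM with and 33.3 CPM without Ptgs2, higher in 6 of 14 animals. In Cd200+ cells Ptgis averaged 186 CPM with and 170 CPM without Ptgs2, higher in 11 of 15 animals. It was higher with Ptgs2 in 10 of 17 animals in Il6+, 4 of 9 in Lining and 3 of 9 in Pi16+ cells. Cells with a Ptgs2 UMI were deeper, with a median of 11171 UMIs against 8769 UMIs in Il6+ cells.

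Genes most like each member were found over 57 animal-by-class sums of the unsorted fibroblasts, by Pearson's r of log2(CPM + 1) among genes averaging at least 10 CPM. These sums share animals, libraries and classes, and the values are descriptions. Ptgs2 was most like Svep1 (0.85), Ksr1 (0.84) and Ntrk2 (0.84). Ptges was most like Steap4 and Twist2 (both 0.75), Ptgis like Aspn (0.90), and Ptger4 like Mdk and Runx2 (both 0.86). The genes most like the low members Ptgs1 and Ptger2 were Ckb (0.81) and Mmp12 (0.67), in that order, and Ptgds was not compared. Between members the highest r was 0.45, for Ptgs2 with Ptges, and r was -0.53 for Ptgs2 with Ptgs1. The genes above were picked as the highest of all genes compared, so their r cannot be weighed against these.

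Around the 7 genes, 57 symbols of neighbouring pathways were listed. Their tests used the summed fibroblasts, whose class mixture differed between the groups. No values within classes or at fixed class shares are given for them, and the part of the mixture in their differences was not tested. In untreated arthritis against health 13 of the 45 tested were called, 6 higher and 7 lower, a share near the 28.7% of all tested genes. Of 11 listed genes that supply arachidonic acid 8 were tested, 1 rose, 2 fell and the others were not called, with a median log2 fold change of 0.71 beside 0.0076 over all tested genes. Pla2g5, a secreted phospholipase A2, rose by 1.49 ± 0.24, while Daglb, a diacylglycerol lipase, fell by 1.91 ± 0.16 and Mgll, which releases arachidonic acid from 2-arachidonoylglycerol, fell by 1.86 ± 0.18 (edgeR adjusted p = 0.000447, 2.12e-06 and 8.65e-06). Mgll averaged 8.77 ± 0.38 CPM in untreated arthritis and 31.8 ± 2.9 CPM in health (SD, n = 3 each). Mgll and Daglb were higher under IL-17 inhibition than in untreated arthritis, a comparison that shares its untreated animals with the one above (Mgll 0.72 ± 0.17, Daglb 0.57 ± 0.15, edgeR adjusted p = 0.0248 and 0.0361).

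Of the other prostanoid receptors, 5 of 8 were tested and Ptgfr, the receptor for prostaglandin F2α, rose in untreated arthritis against health (0.73 ± 0.16, edgeR adjusted p = 0.00379), at 24.0 ± 2.3 CPM against 14.4 ± 1.9 CPM in health (SD, n = 3 each). Ptgir, the prostacyclin receptor, was not called in that comparison. Ptger1, another prostaglandin E2 receptor, fell under TNF inhibition against untreated arthritis by 0.90 ± 0.24 (edgeR adjusted p = 0.0461), the 1 of 45 listed genes tested that was called there, where 5.55% of all tested genes were. Among the genes of breakdown and transport, 6 of 7 symbols were tested. Ptgr1, a prostaglandin reductase, rose by 1.03 ± 0.18 and Abcc4, an exporter of prostaglandins, by 0.88 ± 0.18, while Zadh2, another reductase, fell by 0.59 ± 0.10 in untreated arthritis against health. Hpgd, which inactivates prostaglandin E2, was not called in that comparison. Zadh2 was also lower under IL-17 inhibition than in untreated arthritis (-0.36 ± 0.10, edgeR adjusted p = 0.0419). Between the inhibitors Ptger1 was higher and Abcc4 lower under IL-17 than under TNF inhibition (1.35 ± 0.23 and -0.55 ± 0.14, edgeR adjusted p = 0.0044 and 0.0357).

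Of the other synthases, 7 of 9 symbols were tested and Prxl2b, a prostaglandin F synthase, rose in untreated arthritis against health (0.68 ± 0.16, edgeR adjusted p = 0.00740). Ptges2 and Ptges3, the other E synthases, were not called in that comparison. Of 9 leukotriene and lipoxygenase genes 6 were tested, and Cysltr1, a leukotriene receptor, fell (-2.97 ± 0.73, edgeR adjusted p = 0.00814). All 13 immediate early and dissociation genes were tested, of which Dusp1 rose by 0.71 ± 0.13 and Atf3, Ier2 and Junb fell by 0.96, 0.45 and 0.42 in untreated arthritis against health. These 4 of 13 are near the background of 28.7%. In IL-17-inhibited against untreated arthritic animals 2 of the 13, Fosb and Nr4a1, fell, where 8.45% of all tested genes were called and Ptgs2 fell. Their part in it was not tested. Between the inhibitors Ier2 and Ier3 were lower under IL-17 than under TNF inhibition.

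In the remaining comparisons the listed genes are given by direction. In TNF-inhibited animals against health 24 of 45 were called, where 38.9% of all tested genes were. Pla2g5, Prxl2b, Ptges2, Ptgfr, Abcc4, Ptgr1, Ltb4r1, Dusp1, Hspa1a, Hspa1b and Ier3 were higher. Daglb, Mgll, Tbxas1, Ptger1, Ptgfrn, Ptgir, Hpgd, Zadh2, Cysltr1, Atf3, Fosb, Junb and Zfp36 were lower. Tbxas1 had 13 UMIs in healthy and 8 in TNF-inhibited animals. It was highest in health, at 0.618 CPM, and its call is not read as support for the others. The healthy value of Ltb4r1 rests on 12 UMIs. In IL-17-inhibited animals against health 26 of 45 were called, where 35.6% of all tested genes were. Among them Pla2g2e, Pla2g4c, Pla2g5, Prxl2b, Ptgfr, Ptgr1, Ltb4r1, Ltc4s, Hspa1a and Hspa1b were higher. Daglb, Mgll, Pla2g4a, Ptgir, Zadh2, Cysltr1, Atf3, Egr1, Fosb, Ier2, Junb and Zfp36 were among the lower ones. The healthy values of Pla2g4c, Ltb4r1 and Ltc4s rest on 6, 12 and 16 UMIs. Over all arthritic animals of the unsorted libraries against health, with library as a term, 26 of 45 were called, where 40.2% of all tested genes were. There Pla2g2e, Pla2g5, Pla2g6, Prxl2b, Ptgfr, Abcc4, Ptgr1, Ltb4r1, Ltc4s, Dusp1, Hspa1a and Hspa1b were higher. Daglb, Mgll, Tbxas1, Ptgir, Hpgd, Zadh2, Cysltr1, Atf3, Fosb, Ier2, Junb and Zfp36 were among the lower ones. The healthy values of Tbxas1, Ltb4r1 and Ltc4s rest on 13, 12 and 16 UMIs, and the call of Tbxas1 is again not read as support.

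In FAP-sorted against untreated arthritic animals 20 of 43 listed genes tested were called, where 42.9% of all tested genes were, a share near the background. Akr1b3, Cbr1, Prxl2b, Ptges2, Ptgfr, Ptgfrn, Ptgr1, Ptgr2, Alox5ap and Ltb4r1 were higher. Pla2g2d, Pla2g5, Ptges3, Ptgir, Slco2a1 and Zadh2 were lower, as were the immediate early genes Dusp1, Fos, Junb and Zfp36, in the comparison in which Ptgs2 was lower, and their part in it was not tested. Ptgir differed by -0.97 ± 0.14 and Slco2a1, which carries prostaglandins into cells, by -0.87 ± 0.17 (edgeR adjusted p = 0.000504 and 0.00254).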

How the data were processed

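The authors deposited raw UMI counts as 1 matrix per library, counted with Cell Ranger per the file headers (6.0.0 for the unsorted and 5.0.0 for the FAP-sorted libraries), while the submitters' processing notes name 6.0.6 and mm10. The authors also deposited a per-cell table with library, hashtag, class and a stress score, whose gene set and cell filters are not given in the sources used here. Library and barcode linked it to the matrices, and doublets were not called again. Counts were summed per hashtagged animal, the replicate, as the labels call them individual animals. edgeR 4.0.16 (R 4.3.3, TMM scaling, low counts filtered by group with filterByExpr, quasi-likelihood test, Benjamini-Hochberg adjustment with threshold 0.05) was fitted over all genes of the 12 unsorted animals, and over 8 animals for the FAP-sorted comparison. Class fits took animals with at least 10 cells of the class. The fit was tested on simulated data. Alternatives were DESeq2 1.42.0, no filter, 2 groups alone, a library term, the hashtag number as a block, other cell sets and leaving out each animal. Members, lists and tests were chosen with earlier results of these data known. The named genes are all 7 members and those listed pathway genes past the threshold, at most 8 per list and comparison by smallest adjusted p.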

Additional observations from a re-analysis of the deposited data

Results flagged for a closer look

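The difference between untreated arthritis and health varied between fibroblast classes for 4 genes, in a fit chosen after the class values were seen. Its healthy Mmp3+ values rest on 57 cells, with 44 UMIs of Ptgs2, 28 of Ptges and 87 of Ptgis. The healthy Lining value of Ptges rests on 21 UMIs. Relative to Il6+ cells, the log2 difference was offset by 2.99 (Lining) and 1.80 (Mmp3+) for Ptges, by 1.89 (Mmp3+) for Ptgs2, by -1.61 (Mmp3+) for Ptgis, and by -1.30 (Lining) and -4.39 (Pi16+) for Ptger4. The Pi16+ value rests on 1 UMI in untreated arthritic cells and ranged from -9.18 to -3.60 with 1 animal left out. Of 6 such cases each, the Lining call of Ptger4 ended in 5 and its Pi16+ call in 4, the Ptgis call without the healthy animal of the TNF-inhibited library and the Ptgs2 call without that of the untreated library.

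Of 51 sets of FAP-sorted values, each a gene in all fibroblasts or in 1 class, 6 had an animal far from the others. FAP-sorted animal 1 had 25.8 CPM of Ptgds (15 UMIs) and 5.16 CPM of Ptgs1 (3 UMIs) in chondrocytes, where the 4 other animals had none, and 5.93 CPM of Ptgs1 in osteoblasts (3 UMIs), where 1 other animal had 1 UMI. Any counted animal stands apart among values of 0, so the chance rate of about 1 in 20 does not hold for such sets. FAP-sorted animal 4 had 93.4 CPM of Ptges and 203 CPM of Ptgs2 in Lining cells, and 263 CPM of Ptgis in osteoblasts.

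Barcodes outside the annotation entered no comparison and held UMIs of all 7 genes. Summed over the 4 libraries they held 12.2 CPM of Ptgs1, 422 CPM of Ptgs2, 95.9 CPM of Ptges, 57.6 CPM of Ptgis, 1.04 CPM of Ptgds, 2.09 CPM of Ptger2 and 26.6 CPM of Ptger4. Ptgs1 and Ptgds stood above the annotated cells, which held 3.26 CPM and 0.069 CPM of them.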

How the results depend on the processing

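With the library as a term, the number of genes called fell to 2317 for untreated arthritis against health (1 member), 2788 for TNF inhibition and 1948 for IL-17 inhibition (1 member) against health. It was 0, with 0 members, for TNF inhibition and for IL-17 inhibition against untreated arthritis and for IL-17 against TNF inhibition. Signs turned in that fit for Ptgs2 (0.37) and Ptger4 (0.31) under TNF inhibition and Ptger2 (-0.15) under IL-17 inhibition against untreated arthritis, for Ptger2 (-1.12) and Ptger4 (-0.53) between the inhibitors, and for Ptges (-0.043) under IL-17 inhibition against health.

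In cells below the median stress score, calls were 102 genes and 0 members for TNF inhibition and 537 genes for IL-17 inhibition against untreated arthritis, and 610 genes and 2 members between the inhibitors, where Ptger4 was -0.28. In the FAP-sorted comparison Ptgs1 was -0.11 and Ptger4 0.13 in those cells. With DESeq2, 1405 genes were called for TNF inhibition against untreated arthritis and 2 members between the inhibitors, as also with all 7 classes and with no filter (2 members each). With all 7 classes, Ptgis (-0.0039) and Ptger2 (-0.047) turned in the FAP-sorted comparison. A fit of the compared groups alone called 0 members for TNF inhibition, 2001 genes and 2 members for IL-17 inhibition against untreated arthritis, and 495 genes between the inhibitors. Without a filter, member calls within classes were 10 for IL-17 inhibition, 9 for TNF inhibition and 24 for untreated arthritis against health. Of all genes in that setting, 219 of 16607 (Pi16+) to 1206 of 20828 (Mmp3+) were called under IL-17 inhibition. The shares for the other comparisons are not given here, and these member counts are not read as results. The causes were not tested.

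With 1 animal left out at a time, genes called ranged from 105 to 781 for TNF inhibition and 326 to 754 for IL-17 inhibition against untreated arthritis (0 to 1 members each), and 473 to 1092 between the inhibitors (1 to 2 members). Member calls within classes ranged from 0 to 2 under IL-17 and 0 to 1 under TNF inhibition. Log2 fold changes ranged from -0.41 to 0.53 for Ptgis under TNF inhibition, -0.10 to 0.57 for Ptger2 and -0.045 to 0.26 for Ptger4 between the inhibitors, and -0.012 to 0.56 for Ptgs2 and -0.018 to 0.24 for Ptges under IL-17 inhibition against health. In the FAP-sorted comparison they ranged from -0.054 to 0.12 for Ptgs1, -0.044 to 0.23 for Ptgis and -0.21 to 0.25 for Ptger2. Differences at fixed class shares, without the healthy animal of the untreated, the TNF-inhibited and the IL-17-inhibited library in turn, were -2.05, -1.51 and -1.03 for Ptgs1, 0.93, 0.73 and 0.92 for Ptgs2, 0.47, 0.50 and 0.74 for Ptges, -1.39, -1.13 and -1.52 for Ptgis, 0.63, 0.32 and -0.25 for Ptger2 and 0.63, 0.64 and 0.82 for Ptger4. With 16 arrangements none of them can pass the threshold, and the highest value for Ptgs2 over all animals left out was 0.94.

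Animals with the same hashtag number did not deviate together (correlations from -0.16 to 0.15), so the numbers do not pair them. With the hashtag number as a replicate block, 730 genes were called for TNF inhibition and 978 for IL-17 inhibition against untreated arthritis and 859 between the inhibitors, and the same members were called. Healthy depth, 4508588 to 7307067 UMIs, limits the low genes Ptgs1, Ptger2 and Ptgds most.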

Other observations

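Outside the annotation, Ptgs1 was highest in barcodes with endothelial markers. In barcodes with at least 3 of 5 endothelial markers it stood at 87.8 CPM in the IL-17-inhibited library (509 barcodes), 83.3 CPM in the TNF-inhibited library (505 barcodes) and 72.0 CPM in the untreated library (447 barcodes). In barcodes with at least 3 mural markers it stood at 9.32, 5.74 and 7.99 CPM in the same libraries, and with at least 3 keratinocyte markers at 44.9, 32.3 and 10.4 CPM. The FAP-sorted library had 3 barcodes with at least 3 endothelial markers and no Ptgs1 UMI in them. These barcodes have no deposited class and are named by the markers alone.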
